A study of Mus musculus with 24 samples.

Results

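Luminal progenitor-lineage cells of the pubertal mouse mammary gland were compared between terminal end buds (TEBs, the bulbous growing tips of the ductal tree) and the ducts those tips leave behind. These cells were taken from luminal gates of 2 mouse models and pooled: the GFP-positive (GFP+) luminal cells of mice carrying Elf5-rtTA-IRES-GFP, and the YFP-negative (YFP-) luminal cells of mice carrying PR-cre with Rosa26-LSL-eYFP. Each gate gave 2 duct and 2 TEB libraries of bulk RNA-seq, so 8 of the 24 libraries of the series entered the comparison, 4 from TEBs and 4 from ducts, with the mouse model kept as a block. All cells were lineage-negative, EpCAM-positive and low for CD29, and came from microdissected tissue of pubertal mice. The sources used here give no exact age and no drug or hormone treatment. The other 8 luminal libraries, from the GFP-negative (GFP-) and YFP-positive (YFP+) gates, are called hormone-sensing below and served as the reference in the last comparison.

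Luminal progenitors are ductal epithelial cells with little oestrogen or progesterone receptor that can give rise to milk-secreting alveolar cells. The ETS factor Elf5 drives that alveolar fate under prolactin, and the receptor tyrosine kinase Kit marks the same lineage. In puberty, TEBs invade the fat pad by proliferation at the tip, where body cells line the forming lumen and an outer layer of cap cells feeds the basal lineage. The subtending duct is quieter and already polarised around a lumen.

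The 2 gates differ in kind. The GFP+ gate holds luminal cells in which the Elf5-driven reporter is on. The YFP- gate is a negative gate: it holds every luminal cell in which the progesterone receptor-driven Cre had not switched on the Rosa26 reporter. Mouse model, reporter and type of gate change together between the gates and cannot be told apart. No label ties the 2 libraries of a group to different mice. The p-values therefore reflect only how far these libraries scatter, and that scatter may be technical. Nor do the labels say whether the gates of a model came from the same preparations.

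The defining genes followed the gates. In CPM, a gene's count scaled to a common library total (here of all counts), Elf5 ran from 450.7 to 1477 (median 718) in the 8 progenitor-lineage libraries and from 16 to 89.1 in the 8 hormone-sensing ones. Kit ran from 693 to 2088 against 3.49 to 139. Esr1, the oestrogen receptor gene, was lower in progenitor-lineage cells (12.7 to 43.8 against 123 to 208), as was Pgr, the progesterone receptor gene (13.0 to 65.3 against 212 to 638). The luminal keratin gene Krt8 stood between 1749 and 4050, above the 157 to 418 of the basal libraries.

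One library stands apart. YFP- TEB replicate 2 held transcripts of stratified skin epithelium, with Krt1 at 98.6 and Krt10 at 208 CPM, here and below on TMM-scaled library sizes. It also held Krt14 at 272 and Krt5 at 461 CPM, keratin genes that mammary basal cells express as well, and their source was not tested. In CPM of the library total, YFP- TEB replicate 1 had Krt5 at 66.3, against 0.629 and 0.872 in GFP+ TEBs and 1.62 to 26.7 in ducts. A keratinocyte list summed to 549 CPM there, to between 51.5 and 96.1 CPM in the other 3 TEB libraries and to between 38.7 and 61.5 CPM in ducts. The same library had the highest sums of the basal list (896 CPM, against 43.7 to 197 in the other TEB libraries and 134 to 161 in ducts) and of the fibroblast list (385 CPM, against 134 to 195 and 66.0 to 95.7). Of 10 keratinocyte genes tested, 3 rose in TEBs with this library and 1 without it. Of 14 fibroblast genes tested, 5 rose and 1 fell, also without it (3 rose without YFP- duct replicate 1 or 2, and 9 without YFP- TEB replicate 1), and the 4 TEB sums lie above the 4 duct sums. The part of fibroblast transcripts in the results below was not tested. The immune list stayed between 6.49 and 11.2 CPM in TEBs and 7.06 and 19.5 CPM in ducts, with 0 of 12 genes called, and the leukocyte gene Ptprc ran from 0 to 0.194 CPM in TEBs and from 0.137 to 1.58 CPM in ducts.

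Library totals ran from 31264622 to 52495208 counts, so 3 counts stood for 0.0571 to 0.0960 CPM, and 16232 to 18015 genes were detected. In the pooled comparison, 5371 of 16154 genes tested passed edgeR's quasi-likelihood F-test at a Benjamini-Hochberg adjusted p under 0.05, which is 33.2% of them. A total of 2730 (16.9%) were higher and 2641 (16.3%) lower in TEBs, and 952 and 748 of these changed more than 2-fold. The shares of 16.9% and 16.3% are the background for every count of list genes that rose or fell below. The median log2 fold change over all genes was 0.0043. Fold changes are TEB over duct throughout, so a negative log2 value is lower in TEBs, and ± after a log2 value is its standard error. Of the 5371 calls, 5352 had the same direction in both gates, and in 3658 all 4 TEB libraries lay on one side of all 4 duct libraries. The pooled fit treats disagreement of the gates as scatter, so a gene with opposite changes is rarely called. The shared direction is thus largely fixed by that choice and does not measure how far the gates agree. Tested separately, the GFP+ gate called 4425 genes (27.4%) and the YFP- gate 3746 (23.2%). The first count was 2520 without GFP+ TEB replicate 1 and 2862 without GFP+ TEB replicate 2, the second 1841 and 1883 without YFP- duct replicate 1 and 2. A total of 1166 genes were called higher in both gates, 1176 lower in both, and 45 in opposite directions. Without YFP- TEB replicate 2 the pooled count was 4933 (2503 higher, 2430 lower). In bulk RNA, fewer cells of a type and less RNA per cell cannot be told apart, which holds for every level below.

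**Figure D1:**
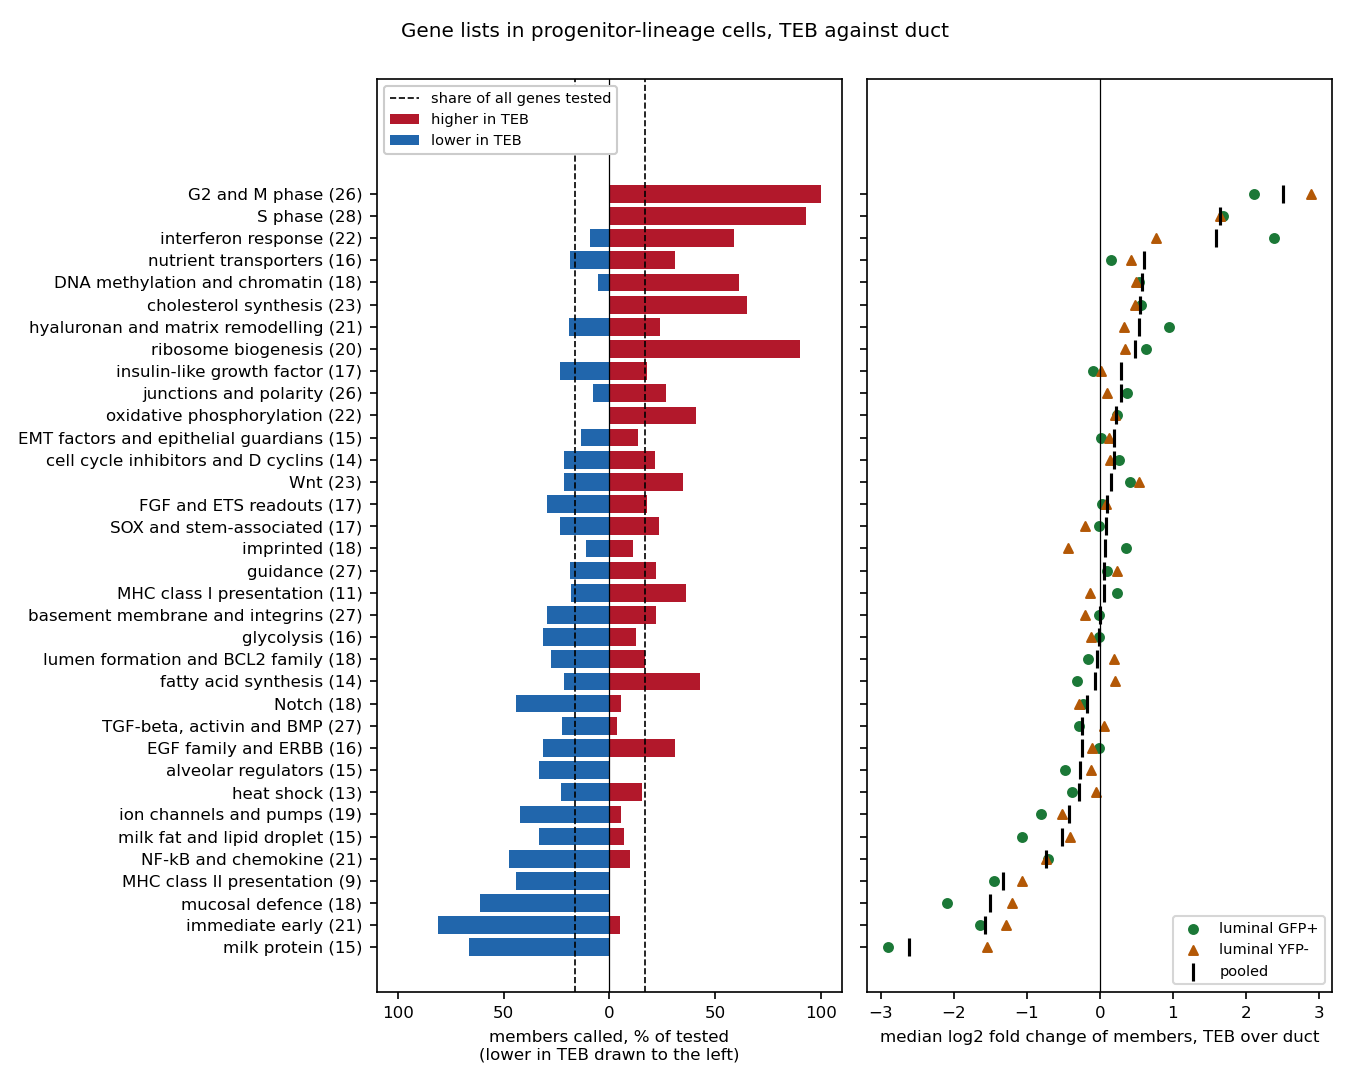
Gene lists in progenitor-lineage cells. Left, share of tested members called higher (red) or lower (blue) in TEBs, with dashed lines at the share of all genes tested (16.9% and 16.3%) and the number tested in parentheses; right, median log2 fold change of the members in GFP+ cells (circles), YFP- cells (triangles) and pooled (bars). All 26 G2 and M phase genes and 18 of 20 ribosome biogenesis genes were called higher, 17 of 21 immediate early and 10 of 15 milk protein genes lower.

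Of 18 luminal progenitor genes, 9 fell in TEBs, 0 rose and 9 did not pass the test (median log2 -0.88), against 16.3% of all genes falling. Elf5 stood at 1539 and 1657 CPM in GFP+ ducts, 703 and 704 in YFP- ducts, 758 and 694 in GFP+ TEBs and 415 and 476 in YFP- TEBs. Within each gate the TEB libraries lie below the ducts, while GFP+ TEBs overlap the YFP- ducts, and the gene was 1.86-fold lower (log2 -0.90 ± 0.11, adjusted p = 0.000286). Kit stood at 811 and 859 CPM in GFP+ ducts, 2049 and 2152 in YFP- ducts, 833 and 769 in GFP+ TEBs and 1248 and 1376 in YFP- TEBs. Its GFP+ values hardly differ between tissues and its YFP- values are lower in TEBs, and the pooled change of -0.37 ± 0.13 was not called (adjusted p = 0.0515). Aldh1a3, a retinaldehyde dehydrogenase of luminal progenitors, had 199.9 and 296 CPM in GFP+ ducts, 1639 and 1654 in YFP- ducts, 339 and 489.6 in GFP+ TEBs and 579 and 526 in YFP- TEBs. It changed by 0.74 in the GFP+ gate and by -1.58 in the YFP- gate, and this difference of 2.32 ± 0.30 was called (adjusted p = 0.00588). Sox10, a neural crest and mammary progenitor factor, was not called (log2 0.08 ± 0.14, adjusted p = 0.718).

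Of 15 regulators of alveolar development, 5 fell, 0 rose and 10 did not pass. Gata3, a zinc finger factor that maintains luminal fate, had 219 and 263 CPM in GFP+ ducts, 185 and 158 in YFP- ducts, 85.8 and 86.3 in GFP+ TEBs and 120.2 and 97.5 in YFP- TEBs. Every TEB library lies below every duct library (log2 -1.07 ± 0.18, adjusted p = 0.00238). Cebpb, needed for the switch from ductal to alveolar fate, and Cish, a cytokine-induced inhibitor of prolactin receptor signalling, also fell (log2 -0.93 and -0.78). Cd14 and Plet1, surface proteins used to isolate progenitors, fell by 1.20 ± 0.10 and 1.12 ± 0.22 on the log2 scale.

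Milk genes were abundant in the ducts of these pubertal glands and lower in TEBs. Of 15 milk protein genes tested, 10 fell, 0 rose, and the median log2 fold change was -2.62, with counts of 10 and 0 without YFP- TEB replicate 2. Trf, the iron carrier transferrin, had 45370.0 and 23409 CPM in GFP+ ducts, 2417 and 2539 in YFP- ducts, 3894 and 2965 in GFP+ TEBs and 598 and 716 in YFP- TEBs. The GFP+ ducts are the highest, and GFP+ TEBs lie above the YFP- ducts, but within each gate the TEBs are lower (log2 -2.62 ± 0.35, adjusted p = 0.000952). Lalba, the regulatory subunit of lactose synthase, had 2642 and 2552 CPM in GFP+ ducts, 157 and 141 in YFP- ducts, 105 and 67.1 in GFP+ TEBs and 9.79 and 17 in YFP- TEBs (log2 -4.21 ± 0.40, adjusted p = 0.000455). Btn1a1, the butyrophilin of the milk fat globule membrane, had 4205 and 3448 CPM in GFP+ ducts, 1070.0 and 1094 in YFP- ducts, 169 and 157 in GFP+ TEBs and 45.8 and 82.5 in YFP- TEBs, and no TEB library reached any duct library (log2 -4.32 ± 0.21, adjusted p = 1.8e-06). Ltf, the antimicrobial iron binder lactoferrin, stood at 3844 and 3871 CPM in GFP+ ducts, 3124 and 3564 in YFP- ducts, 708 and 898 in GFP+ TEBs and 185 and 191 in YFP- TEBs. It fell in both gates, by 2.26 in GFP+ and 4.15 in YFP- cells, and the larger fall of the YFP- gate was itself called (difference 1.89 ± 0.19, adjusted p = 0.000623). Mfge8, the milk fat globule protein that tags dying cells for uptake, fell 4.27-fold (log2 -2.09 ± 0.11, adjusted p = 1.63e-06), and Pigr, the receptor that carries antibodies into milk, fell 5.07-fold (log2 -2.34 ± 0.12, adjusted p = 1.46e-06).

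The caseins Csn2, Csn1s1 and Csn1s2a were not called. Csn2, beta-casein, had 10551 and 1511 CPM in GFP+ ducts, 3.71 and 1.65 in YFP- ducts, 142 and 64.2 in GFP+ TEBs and 2.8 and 1.5 in YFP- TEBs. Both GFP+ ducts are high and differ widely from each other, GFP+ TEBs come next, and YFP- ducts and TEBs stay within 1.5 to 3.71 CPM (pooled log2 -3.58 ± 1.82, adjusted p = 0.196). Csn3, kappa-casein, did pass, with 9781 and 5948 CPM in GFP+ ducts, 2326 and 2171 in YFP- ducts, 1935 and 1714 in GFP+ TEBs and 1386 and 1171 in YFP- TEBs (log2 -1.46 ± 0.29, adjusted p = 0.00585). Prolactin acts on casein genes through STAT5, which binds palindromes of the form TTCNNNGAA. Such a palindrome was present, on either strand, in 5 of 13 promoters of milk protein genes (38.5%) and in 8.3% of 32851 RefSeq promoters of the same length (250 bases before to 50 after the start). The 250 bases before the start of Csn2 (RefSeq, GRCm38.p6, chr5:87699426-87699675, minus strand) are shown because they hold one, in capitals, that begins 93 bases before the start.

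Csn2: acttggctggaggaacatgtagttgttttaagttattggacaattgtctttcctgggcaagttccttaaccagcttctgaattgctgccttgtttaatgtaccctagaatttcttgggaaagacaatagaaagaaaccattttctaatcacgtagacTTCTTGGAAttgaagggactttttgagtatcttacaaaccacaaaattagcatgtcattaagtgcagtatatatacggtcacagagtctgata

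Genes of secreted and surface defence proteins also fell. Of 18 mucosal defence genes, 11 fell and 0 rose (median log2 -1.5). Fcgbp, a mucin-like protein of epithelial surfaces, had 8009 and 6815 CPM in GFP+ ducts, 3316 and 2919.9 in YFP- ducts, 289 and 527 in GFP+ TEBs and 104 and 222 in YFP- TEBs. The lowest duct library is above the highest TEB library by several fold (log2 -4.22 ± 0.29, adjusted p = 3.6e-05). C3, the central complement component, had 855 and 545 CPM in GFP+ ducts, 148 and 180.0 in YFP- ducts, 39.4 and 34 in GFP+ TEBs and 34.8 and 50.5 in YFP- TEBs, with the GFP+ ducts highest and all 4 TEB libraries alike (log2 -3.10 ± 0.58, adjusted p = 0.0097). Muc1, the apical mucin of luminal cells, fell 3.24-fold (log2 -1.69 ± 0.12, adjusted p = 8.43e-06). Of 15 milk fat and lipid droplet genes 5 fell and 1 rose, among them Xdh, the xanthine oxidoreductase of the fat globule (log2 -1.8 ± 0.23), and Lpin1, a phosphatidate phosphatase (-1.21 ± 0.17).

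**Figure D2:**
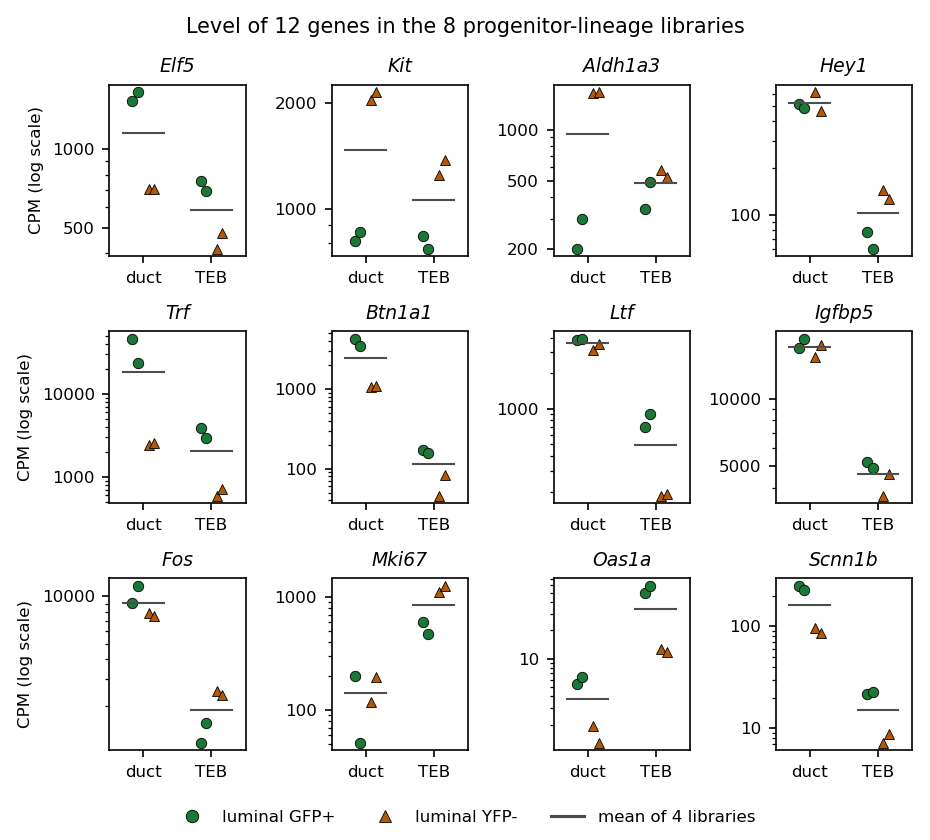
Level of 12 genes in each of the 8 libraries, in CPM on log scales, GFP+ as circles and YFP- as triangles, with the mean of 4 libraries as a line. Mki67 and Oas1a are higher in TEBs, Hey1, Btn1a1, Ltf, Igfbp5, Fos and Scnn1b are lower in all 4 TEB libraries, and Kit and Aldh1a3 differ between the gates.

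Cell cycle genes were higher in TEB cells. All 26 G2 and M phase genes tested rose (median log2 2.51), and of 28 S phase genes 26 rose and 0 fell (median 1.64), against 16.9% of all genes. Mki67, a chromosome-surface protein of cycling cells, had 199 and 51.7 CPM in GFP+ ducts, 117 and 198 in YFP- ducts, 600.4 and 475 in GFP+ TEBs and 1112 and 1245 in YFP- TEBs. Every TEB library lies above every duct library, and YFP- TEBs are the highest (log2 2.50 ± 0.48, adjusted p = 0.0094). GFP+ duct replicate 2 had the lowest Mki67, and the same library was lowest for other cycle genes, such as Ccna2, the S and M phase cyclin, with 27.4 and 6.71 CPM in GFP+ ducts, 15.2 and 23.8 in YFP- ducts, 116 and 81 in GFP+ TEBs and 148 and 154 in YFP- TEBs (log2 2.74 ± 0.46, adjusted p = 0.00555). Plk1, a mitotic kinase, had 7.65 and 2.38 CPM in GFP+ ducts, 3.49 and 5.7 in YFP- ducts, 32.3 and 21.9 in GFP+ TEBs and 40.9 and 37.4 in YFP- TEBs (log2 2.75 ± 0.39, adjusted p = 0.00182). Ccnb1, the mitotic cyclin, rose 7.53-fold and Aurkb, the kinase of the chromosomal passenger complex, 6.53-fold. Without YFP- TEB replicate 2, 26 G2 and M phase and 24 S phase genes rose.

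Of 14 inhibitors, pocket proteins, D cyclins and their kinases, 3 rose and 3 fell, shares near the 16.9% and 16.3% of all genes. Rb1, the retinoblastoma protein that holds E2F factors in check, had 1078 and 1201 CPM in GFP+ ducts, 589 and 599 in YFP- ducts, 138 and 134 in GFP+ TEBs and 173 and 245 in YFP- TEBs. The 4 ducts are all above the 4 TEBs (log2 -2.29 ± 0.35, adjusted p = 0.00318), and the fall was larger in the GFP+ gate (difference -1.56 ± 0.21, adjusted p = 0.00284). Cdkn1a, the p21 inhibitor, fell 2.03-fold (log2 -1.02 ± 0.22, adjusted p = 0.0101), whereas Cdk4, the partner of D cyclins, rose 1.91-fold (log2 0.93 ± 0.11, adjusted p = 0.000147). The inhibitor genes Cdkn2a and Cdkn2d were called higher too, with log2 changes of 3.93 to 5.36 and 0.51 to 0.70 over the fits run. The call of Cdkn2d was lost without GFP+ TEB replicate 1 or YFP- duct replicate 1.

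Promoters of the mitotic genes share letters that the DREAM and MuvB complexes and NF-Y are known to bind. A CCAAT box (CCAAT) stood in 18 of 21 G2 and M phase promoters (85.7%) and a cell cycle homology region (CHR, TTTGAA) in 15 of 21 (71.4%), on either strand, against 37.4% and 17.9% of all promoters. The CCAAT share is not particular to these genes, as 16 of 19 cholesterol synthesis promoters (84.2%) also held the box. Only 1 of those 19 (5.26%) held a CHR. The 250 bases before the starts of Mki67 (chr7:135716380-135716629) and Cdk1 (chr10:69352913-69353162), both on the minus strand of GRCm38.p6, are shown with these letters in capitals (ATTGG is CCAAT on the other strand). In Mki67 the CCAAT boxes begin 188, 166 and 141 and the CHRs 116 and 98 bases before the start. In Cdk1, the mitotic kinase, chosen after its values were seen, the CCAAT boxes begin 208, 80 and 48 and the CHRs 71 and 15 bases before it. Cdk1 stood at 24.5 and 6.27 CPM in GFP+ ducts, 13.9 and 17.1 in YFP- ducts, 87.6 and 66 in GFP+ TEBs and 112 and 102 in YFP- TEBs, with no overlap of the tissues (log2 2.55 ± 0.42, adjusted p = 0.00488).

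Mki67: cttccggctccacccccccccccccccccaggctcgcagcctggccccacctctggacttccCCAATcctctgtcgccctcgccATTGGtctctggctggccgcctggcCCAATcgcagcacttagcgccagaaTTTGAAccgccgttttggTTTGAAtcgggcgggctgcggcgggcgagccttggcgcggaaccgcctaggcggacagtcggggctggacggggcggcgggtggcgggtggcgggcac

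Cdk1: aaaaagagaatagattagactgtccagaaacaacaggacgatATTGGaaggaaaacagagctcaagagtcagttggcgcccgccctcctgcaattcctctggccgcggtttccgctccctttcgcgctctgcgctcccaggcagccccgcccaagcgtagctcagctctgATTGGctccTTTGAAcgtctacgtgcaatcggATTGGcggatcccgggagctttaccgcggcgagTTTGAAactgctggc

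Most genes of 2 biosynthetic lists rose as well. Of 20 ribosome biogenesis genes 18 rose and 0 fell (median log2 0.48). The largest of these was Nhp2, a protein of the box H/ACA particles, 29.6 to 47.3 CPM in ducts and 58.2 to 84.6 CPM in TEBs (log2 0.85 ± 0.16, adjusted p = 0.00259). Of 23 cholesterol synthesis genes 15 rose and 0 fell (median 0.56). Fdps, which makes farnesyl diphosphate, had 21.8 and 17.2 CPM in GFP+ ducts, 14.4 and 12 in YFP- ducts, 39.5 and 31.3 in GFP+ TEBs and 37.7 and 34.4 in YFP- TEBs. All TEBs are above all ducts (log2 1.15 ± 0.16, adjusted p = 0.000415). Among chromatin genes 11 of 18 rose and 1 fell. Hmgb2, a DNA-bending protein, rose 3.37-fold (log2 1.75 ± 0.13, adjusted p = 1.46e-05), and Cbx7, a Polycomb subunit, fell 2.1-fold (log2 -1.07 ± 0.11, adjusted p = 0.000103). Hmga2, an architectural factor of growing tissue, was at 0 counts in all 4 ducts and at 0.79 and 1.07 CPM in GFP+ TEBs and 3.99 and 4.86 CPM in YFP- TEBs. Of 22 oxidative phosphorylation genes 9 rose and 0 fell, at a median of 0.22, and the count fell to 4 without GFP+ TEB replicate 1 or YFP- duct replicate 1 and to 5 without GFP+ duct replicate 2 or YFP- TEB replicate 1.

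Genes of fuel use and uptake changed in both directions. Among all genes 16.9% were called higher and 16.3% lower. Of 16 glycolysis genes 2 rose and 5 fell, and the falls numbered 3 without YFP- TEB replicate 1, YFP- TEB replicate 2 or YFP- duct replicate 2. Aldoc, an aldolase, had levels of 352 to 576 CPM in ducts and 184 to 303 CPM in TEBs (log2 -0.83 ± 0.09, adjusted p = 0.000138). Of 14 fatty acid genes 6 rose and 3 fell. Scd2, a stearoyl-CoA desaturase, rose 2.77-fold (log2 1.47 ± 0.20, adjusted p = 0.00124), while the desaturase Fads1 (-1.16 ± 0.15) and the malic enzyme Me1 (-1.07 ± 0.09) fell. Slc38a1, a sodium-coupled glutamine carrier, had 32.2 and 34.9 CPM in GFP+ ducts, 52.2 and 55.1 in YFP- ducts, 139 and 121 in GFP+ TEBs and 129 and 128 in YFP- TEBs, and its TEB values are alike in both gates (log2 1.61 ± 0.14, adjusted p = 3.45e-05). Slc3a2, the heavy chain of several amino acid exchangers, moved the other way (log2 -1.25 ± 0.09, adjusted p = 1.46e-05). In the list of nutrient transporters 5 of 16 genes rose and 3 fell.

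Most interferon-stimulated genes were higher in TEBs. Of 22 such genes, 13 rose and 2 fell (median log2 1.59, with 2.38 in the GFP+ and 0.77 in the YFP- gate). Without GFP+ duct replicate 2 the rises numbered 8, and between 10 and 17 without any other single library. The oligoadenylate synthetases make a second messenger that activates RNase L. Oas1a had 5.37 and 6.43 CPM in GFP+ ducts, 1.92 and 1.29 in YFP- ducts, 50 and 58.5 in GFP+ TEBs and 12.7 and 11.7 in YFP- TEBs. All TEBs are above all ducts, and both gates rose (3.20 and 2.91 on the log2 scale, pooled log2 3.07 ± 0.16, adjusted p = 1.46e-06). Oas2 had 6.09 and 5.99 CPM in GFP+ ducts, 0.851 and 0.264 in YFP- ducts, 65.7 and 92.7 in GFP+ TEBs and 9.59 and 10 in YFP- TEBs (log2 3.85 ± 0.24, adjusted p = 8.49e-06), and Oas3 had 0.29 and 0.538 CPM in GFP+ ducts, 0.467 and 0.297 in YFP- ducts, 12.9 and 15.4 in GFP+ TEBs and 3.99 and 1.88 in YFP- TEBs (log2 4.08 ± 0.52, adjusted p = 0.000415). Usp18, which strips ISG15 from proteins and limits receptor signalling, rose 8.77-fold, with 0.956 to 3.26 CPM in ducts and 8.36 to 23.6 CPM in TEBs (log2 3.13 ± 0.28, adjusted p = 3.84e-05). Isg15, the ubiquitin-like modifier itself, had 7.51 and 6.84 CPM in GFP+ ducts, 8.51 and 6.23 in YFP- ducts, 40.5 and 57.7 in GFP+ TEBs and 13.4 and 12.9 in YFP- TEBs. Its rise was 2.77 in the GFP+ and 0.83 in the YFP- gate, a difference that was called (1.94 ± 0.30, adjusted p = 0.00588), and the pooled call (log2 1.82, adjusted p = 0.0157) was lost without GFP+ duct replicate 1 or GFP+ duct replicate 2.

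The sensor and the signal carriers named next were not called higher. Ifih1, the MDA5 sensor of double-stranded RNA, had 94.7 and 103 CPM in GFP+ ducts, 141 and 134 in YFP- ducts, 55.4 and 60.5 in GFP+ TEBs and 80 and 82 in YFP- TEBs and fell in both gates (log2 -0.77 ± 0.07, adjusted p = 4.75e-05). Stat2 and Irf9, subunits of the interferon-activated factor ISGF3, had log2 changes of 0.33 ± 0.13 and -0.01 ± 0.10 and were not called (adjusted p = 0.0744 and 0.937). Among 11 MHC class I presentation genes 4 rose and 2 fell, against 16.9% and 16.3% of all genes. Nlrc5, the transactivator of MHC class I genes, rose 5.25-fold (log2 2.39 ± 0.34, adjusted p = 0.000851) and B2m, the class I light chain, 1.47-fold (log2 0.55 ± 0.09, adjusted p = 0.00128), while Tap2 (-0.77) and Tapbp (-0.58), of the peptide loading complex, fell. Of 9 MHC class II genes 4 fell at low levels, such as Cd74, the invariant chain, 4.15 to 8.92 CPM in ducts and 1.11 to 2.35 CPM in TEBs (log2 -1.83 ± 0.36, adjusted p = 0.00348). The immune list summed to 6.49 to 11.2 CPM in TEBs and 7.06 to 19.5 CPM in ducts, so the tissues overlap, and its part in the class II values was not tested.

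The interferon-stimulated response element is read by that factor, and its core (GAAANNGAA, either strand) stood in 11 of 18 promoters of the list (61.1%, from 16 of its 22 genes) and in 8.56% of all promoters. The 250 bases before the starts of Isg15 (chr4:156200819-156201068), Oas1a (chr5:120907526-120907775) and Oas3 (chr5:120777660-120777909), all on the minus strand of GRCm38.p6, are shown with the overlapping cores in capitals. The cores begin 78, 72 and 66 bases before the start in Isg15, 20 and 14 in Oas1a, and 75 and 69 in Oas3.

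Isg15: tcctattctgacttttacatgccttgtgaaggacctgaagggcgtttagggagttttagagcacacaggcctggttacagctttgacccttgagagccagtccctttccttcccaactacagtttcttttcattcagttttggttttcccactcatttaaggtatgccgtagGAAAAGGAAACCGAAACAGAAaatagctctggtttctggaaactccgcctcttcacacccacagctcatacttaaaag

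Oas1a: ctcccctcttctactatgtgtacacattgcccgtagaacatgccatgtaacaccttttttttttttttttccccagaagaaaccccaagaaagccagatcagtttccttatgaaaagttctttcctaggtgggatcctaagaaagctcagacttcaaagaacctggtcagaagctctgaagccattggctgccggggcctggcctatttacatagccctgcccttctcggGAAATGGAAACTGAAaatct

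Oas3: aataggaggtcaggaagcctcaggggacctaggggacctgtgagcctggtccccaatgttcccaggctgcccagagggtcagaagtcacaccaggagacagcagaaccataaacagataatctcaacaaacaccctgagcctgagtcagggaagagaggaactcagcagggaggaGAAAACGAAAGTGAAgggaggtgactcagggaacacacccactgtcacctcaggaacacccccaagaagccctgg

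Immediate early genes, which encode transcription factors and feedback regulators induced within minutes of a stimulus, including cell dissociation, were lower in TEB libraries. Of 21, 17 fell and 1 rose (median log2 -1.58), against 16.3% of all genes falling. Fos had 9139 and 11602 CPM in GFP+ ducts, 7899 and 7538 in YFP- ducts, 1172 and 1558 in GFP+ TEBs and 2506 and 2370.0 in YFP- TEBs. The ducts are all above the TEBs, and the fall was larger in the GFP+ gate (difference -1.26 ± 0.23, adjusted p = 0.0158), while the pooled value was -2.29 ± 0.26 (adjusted p = 0.000275). Fosb (-2.18 ± 0.19) and Jun (-2.02 ± 0.35), partners in AP-1, fell alongside. Btg2, an antiproliferative gene, had 2537 and 2914 CPM in GFP+ ducts, 1017 and 1223 in YFP- ducts, 306 and 368 in GFP+ TEBs and 345 and 443 in YFP- TEBs (log2 -2.26 ± 0.33, adjusted p = 0.00224). Egr3 alone of the list rose, with 69.9 and 64 CPM in GFP+ TEBs and 72.6 and 58.5 in YFP- TEBs, against 28.4 and 23.2 in GFP+ ducts and 43.6 and 37.2 in YFP- ducts (log2 1.04 ± 0.15, adjusted p = 0.000816). Of 21 NF-kB and chemokine genes 10 fell and 2 rose. Birc3, an inhibitor of apoptosis, fell 2.59-fold (log2 -1.37 ± 0.22, adjusted p = 0.00271). The count of falling NF-kB genes was 4 without YFP- TEB replicate 1, 5 without GFP+ duct replicate 1, YFP- duct replicate 1 or YFP- duct replicate 2, and 6 without GFP+ duct replicate 2.

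Notch signals pass between neighbouring cells and favour luminal fate, with HEY and HES repressors as targets. Of 18 Notch genes 8 fell and 1 rose. Hey1 had 520.0 and 485 CPM in GFP+ ducts, 615 and 465 in YFP- ducts, 76.7 and 60.3 in GFP+ TEBs and 144 and 127 in YFP- TEBs. The 4 TEB libraries lie below the 4 ducts (log2 -2.44 ± 0.20, adjusted p = 0.000102). Its relative Hey2 fell 6.17-fold (log2 -2.63 ± 0.50, adjusted p = 0.0078). The ligand gene Dll4 had 10.4 and 8.77 CPM in GFP+ ducts, 1.48 and 1.58 in YFP- ducts, 0.52 and 0.992 in GFP+ TEBs and 0.366 and 0.645 in YFP- TEBs (log2 -2.70 ± 0.48, adjusted p = 0.00183) and Dll1 fell 3.04-fold (log2 -1.61 ± 0.29, adjusted p = 0.00195). Lfng, a glycosyltransferase that tunes the receptors, rose, with 0.0659 to 1.25 CPM in ducts and 1.53 to 2.61 CPM in TEBs (log2 2.19 ± 0.59, adjusted p = 0.0166), a call lost without YFP- duct replicate 1.

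Wnt genes changed in both directions. Of 23 Wnt genes 8 rose and 5 fell. Axin2, a feedback scaffold and common readout of beta-catenin, had 1.96 and 0.76 CPM in GFP+ ducts, 1.95 and 1.88 in YFP- ducts, 8.65 and 6.09 in GFP+ TEBs and 17.4 and 14 in YFP- TEBs. No duct library reached a TEB library (log2 2.73 ± 0.30, adjusted p = 0.000126). Tcf7, a nuclear partner of beta-catenin, rose 5.3-fold, with 14.2 and 14.6 CPM in GFP+ TEBs and 14 and 22.4 in YFP- TEBs, against 3.21 and 1.14 in GFP+ ducts and 3.16 and 5.28 in YFP- ducts (log2 2.41 ± 0.33, adjusted p = 0.000741). Nkd2, another Wnt feedback gene, had 0.334 and 1.01 CPM in GFP+ ducts, 2.2 and 3.92 in YFP- ducts, 13.8 and 14.7 in GFP+ TEBs and 13.5 and 17 in YFP- TEBs and was among the 12 largest increases (log2 3.29 ± 0.53, adjusted p = 0.00275). Lgr5, an R-spondin receptor and also a beta-catenin target, went the other way, with 8.45 and 9.12 CPM in GFP+ ducts, 28 and 17.1 in YFP- ducts, 0.154 and 0.0405 in GFP+ TEBs and 2.07 and 2.5 in YFP- TEBs. GFP+ TEBs are near the value of 3 counts (0.0571 to 0.0960 CPM), and the fall (log2 -4.39 ± 0.64, adjusted p = 0.00217) was larger there than in YFP- cells (difference -3.13 ± 0.57, adjusted p = 0.0156). The ligand Wnt5b fell in both gates (-0.98 and -0.97, pooled adjusted p = 7.16e-06). Wnt10a was at 0 counts in the 4 ducts and at 0.0578 and 0.0607 CPM in GFP+ and 0.302 and 3.2 CPM in YFP- TEBs, so that its highest value is in the library with keratinocyte transcripts.

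**Figure D3:**
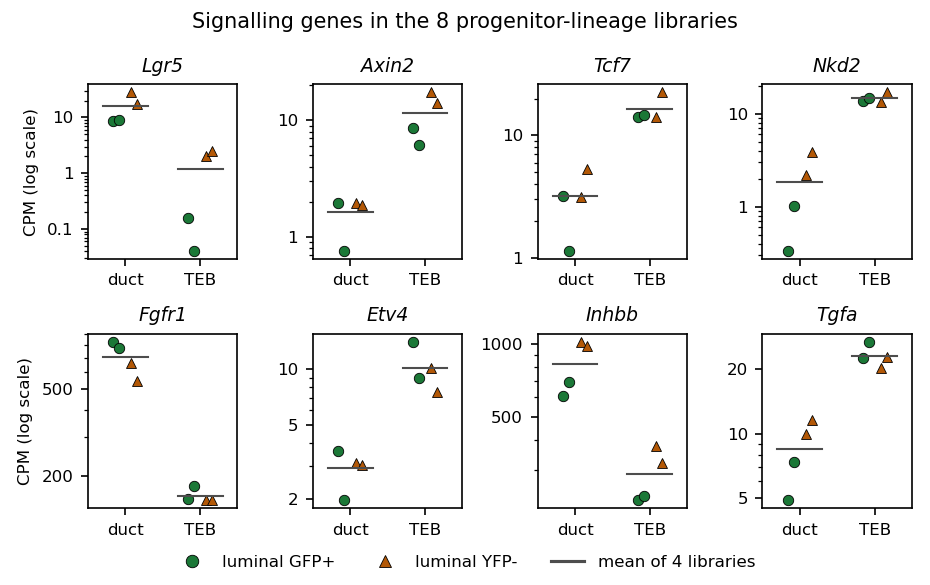
Level of 8 signalling genes in each library, in CPM on log scales, with symbols as in the plot of 12 genes. Axin2, Tcf7, Nkd2, Etv4 and Tgfa are higher in all 4 TEB libraries, and Lgr5, Fgfr1 and Inhbb are lower in all 4.

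Among 16 EGF family genes 5 rose and 5 fell (3 rose without GFP+ TEB replicate 2). The ligand Tgfa had 4.9 and 7.41 CPM in GFP+ ducts, 10 and 11.6 in YFP- ducts, 22.6 and 26.8 in GFP+ TEBs and 20.3 and 22.8 in YFP- TEBs (log2 1.5 ± 0.23, adjusted p = 0.000946). Epgn, epigen, rose 2.37-fold, with 5.28 to 6.23 CPM in ducts and 11.1 to 16.9 CPM in TEBs (log2 1.24 ± 0.17, adjusted p = 0.000456). Another ligand gene, Btc for betacellulin, fell (log2 -0.47 ± 0.10, adjusted p = 0.00506), with a call lost in the fit on all 24 libraries. The receptor gene Egfr fell 1.75-fold (log2 -0.80 ± 0.09, adjusted p = 0.00011), Erbb4 2-fold (log2 -1.0 ± 0.23, adjusted p = 0.00954), and the feedback inhibitor Errfi1 2.02-fold (log2 -1.01 ± 0.18, adjusted p = 0.00228). The calls of Egfr and Erbb4 were also lost in the fit on all 24 libraries. Areg, the amphiregulin needed for ductal growth, had 117 and 120.2 CPM in GFP+ TEBs and 214 and 81.8 in YFP- TEBs, against 77.9 and 35.3 in GFP+ ducts and 41.7 and 32.2 in YFP- ducts. Its call (adjusted p = 0.0371) was lost in 5 of the 8 fits that left out 1 library.

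In the list of FGF and ETS readout genes 3 of 17 rose, a share near the 16.9% of all genes, and 5 fell. Fgfr1, a receptor kinase, had 828 and 774 CPM in GFP+ ducts, 663 and 546 in YFP- ducts, 156 and 179 in GFP+ TEBs and 154 and 155 in YFP- TEBs. TEB values are within a narrow range in both gates and all below the ducts (log2 -2.11 ± 0.10, adjusted p = 1.08e-06). Etv4 and Etv5, ETS factors induced by FGF receptors, rose: Etv4 had 3.63 and 1.96 CPM in GFP+ ducts, 3.13 and 3.03 in YFP- ducts, 14 and 8.93 in GFP+ TEBs and 10.1 and 7.52 in YFP- TEBs (log2 1.77 ± 0.26, adjusted p = 0.00069), and Etv5 rose 2.07-fold (log2 1.05 ± 0.22, adjusted p = 0.00794). Spry1, a feedback inhibitor, rose 1.76-fold (log2 0.82 ± 0.17, adjusted p = 0.00396).

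Igfbp5, an insulin-like growth factor binding protein tied to mammary involution, was among the most abundant transcripts, with 16759 and 18369 CPM in GFP+ ducts, 15246 and 17273 in YFP- ducts, 5217 and 4906 in GFP+ TEBs and 3695 and 4630.2 in YFP- TEBs. It fell 3.68-fold in the pooled cells, with no overlap (log2 -1.88 ± 0.13, adjusted p = 1.02e-05). Irs1 (-1.29 ± 0.15) and Irs2 (-0.98 ± 0.18), the docking proteins of the insulin and IGF receptors, also fell, and Grb14, an inhibitor of the insulin receptor, rose (1.40 ± 0.24). In the insulin-like growth factor list 3 of 17 genes rose, a share near the 16.9% of all genes, and 4 fell, against 16.3%. Of 27 TGF-beta family genes 6 fell and 1 rose, against 16.3% and 16.9% of all genes. Tgfb3, a ligand of epithelial growth arrest, had 919.8 and 846 CPM in GFP+ ducts, 693 and 638 in YFP- ducts, 210.3 and 166 in GFP+ TEBs and 214 and 246 in YFP- TEBs (log2 -1.88 ± 0.15, adjusted p = 3.03e-05). Inhbb, the activin beta-B subunit, had 610.3 and 695 CPM in GFP+ ducts, 1018 and 979 in YFP- ducts, 225 and 234 in GFP+ TEBs and 379.5 and 322 in YFP- TEBs and fell in both gates (-1.51 and -1.51) (log2 -1.51 ± 0.09, adjusted p = 2.56e-06). The gene that rose, Fst, encodes follistatin, which binds activin, and had 3.25 and 4.78 CPM in GFP+ ducts, 0.357 and 1.05 in YFP- ducts, 52 and 61.6 in GFP+ TEBs and 1.23 and 20.8 in YFP- TEBs. It was high in both GFP+ TEBs and in YFP- TEB replicate 2 only, and its call (log2 3.89 ± 0.89, adjusted p = 0.02) was lost in 6 of the 8 fits that left out 1 library.

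Among ion channels and pumps, 8 of 19 fell and 1 rose, in every fit that left out 1 library. The 3 subunits of the epithelial sodium channel, which takes up sodium from the lumen, all fell. Scnn1b had 246 and 227 CPM in GFP+ ducts, 95.1 and 85.3 in YFP- ducts, 21.8 and 22.5 in GFP+ TEBs and 7.24 and 8.84 in YFP- TEBs. The lowest duct value is above the highest TEB value in each gate and between gates (log2 -3.45 ± 0.09, adjusted p = 4e-08). Scnn1g had 44.7 and 36.3 CPM in GFP+ ducts, 18.5 and 21.5 in YFP- ducts, 2.72 and 3.2 in GFP+ TEBs and 1.88 and 3.28 in YFP- TEBs (log2 -3.38 ± 0.23, adjusted p = 1.02e-05), and Scnn1a fell 2.7-fold (log2 -1.43 ± 0.19, adjusted p = 0.000629). Kcnq1, a potassium channel, fell 3.12-fold (log2 -1.64 ± 0.17, adjusted p = 9.09e-05), and Kcnn4, a calcium-activated potassium channel, rose 1.75-fold (log2 0.81 ± 0.10, adjusted p = 0.000257). The call of Kcnn4 was lost in the fit on all 24 libraries.

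Adhesion and matrix genes changed in both directions. Among 26 junction and polarity genes 7 rose and 2 fell. Dsc2, a desmosomal cadherin, had 21.4 and 20 CPM in GFP+ ducts, 31.9 and 23.5 in YFP- ducts, 78.2 and 70.5 in GFP+ TEBs and 86.4 and 76.6 in YFP- TEBs (log2 1.7 ± 0.12, adjusted p = 9.76e-06), and Gja1, connexin 43, rose 3.68-fold (log2 1.88 ± 0.29, adjusted p = 0.00261). Of 27 basement membrane and integrin genes 6 rose and 8 fell. Lama3, the alpha chain of laminin-332, fell 6.63-fold, with 78 to 184 CPM in ducts and 13.8 to 31.9 CPM in TEBs (log2 -2.73 ± 0.37, adjusted p = 0.00223), while Lama4 (0.97) and Lamb1 (0.92), chains of other laminins, rose. Fn1, fibronectin, had 2.12 and 1.01 CPM in GFP+ ducts, 2.03 and 1.32 in YFP- ducts, 12.5 and 12.6 in GFP+ TEBs and 18 and 14 in YFP- TEBs (log2 3.12 ± 0.26, adjusted p = 2.4e-05). Fn1 is on the fibroblast list, whose summed level was higher in TEBs (134 to 385 against 66.0 to 95.7 CPM) and whose median log2 fold change was 2.04. Of the same list, Fbln1, a fibulin of connective tissue, rose, with 0 to 0.132 CPM in ducts and 0.443 to 2.98 CPM in TEBs (log2 4.31 ± 0.72, adjusted p = 0.00133), and the collagen gene Col1a1 was not called, at 1.98 to 6.43 CPM in ducts and 2.57 to 30.7 CPM in TEBs (log2 1.90 ± 0.76, adjusted p = 0.109). The part of fibroblast transcripts in the Fn1 values was not tested. Has2, a hyaluronan synthase, had 4.41 and 6.44 CPM in GFP+ TEBs and 7.37 and 1.77 in YFP- TEBs, against 0.557 and 0.0633 in GFP+ ducts and 0.275 and 0.033 in YFP- ducts (log2 4.39 ± 0.76, adjusted p = 0.0025). Mmp15, a membrane metalloprotease, fell 2.07-fold (log2 -1.05 ± 0.08, adjusted p = 2.06e-05). In the hyaluronan and matrix remodelling list 5 of 21 genes rose and 4 fell, against 16.9% and 16.3% of all genes.

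Among 27 guidance genes 6 rose and 5 fell, against 16.9% and 16.3% of all genes. They included Unc5c, a netrin receptor, which rose with 14.5 and 12.1 CPM in GFP+ TEBs and 9.87 and 7.95 in YFP- TEBs, against 0.49 and 0.982 in GFP+ ducts and 2.47 and 1.22 in YFP- ducts (log2 3.18 ± 0.46, adjusted p = 0.000962), and Ntn1, netrin-1, which fell 1.65-fold (log2 -0.72 ± 0.14, adjusted p = 0.00374). The call of Ntn1 was lost in the fit on all 24 libraries. Of 15 factors of epithelial identity or its loss, 2 rose, 2 fell and 11 did not pass. These shares are below the 16.9% and 16.3% of all genes. Ovol1, an epithelial zinc finger factor, rose (log2 1.47 ± 0.24, adjusted p = 0.00244). Elf3, an epithelial ETS factor, had 226 and 215 CPM in GFP+ ducts, 228 and 214 in YFP- ducts, 77.4 and 84.9 in GFP+ TEBs and 115 and 95.6 in YFP- TEBs (log2 -1.26 ± 0.10, adjusted p = 1.85e-05), and Grhl2, a grainyhead factor of junction genes, fell 1.46-fold (log2 -0.55 ± 0.07, adjusted p = 0.000255). Of 17 SOX and stem-associated genes 4 rose and 4 fell. Among the rises, the call of Sox4 was lost in 7 and that of Bcl11b in 6 of the 8 fits that left out 1 library. Tspan8, a tetraspanin, fell 2.89-fold (log2 -1.53 ± 0.08, adjusted p = 1.46e-06) and Sox9 1.8-fold (log2 -0.85 ± 0.13, adjusted p = 0.0011). Prom1, a membrane glycoprotein, rose (log2 1.15 ± 0.36, adjusted p = 0.0495), a call lost in 6 of the 8 fits that left out 1 library, and the integrin gene Itga6 rose (log2 0.43 ± 0.10, adjusted p = 0.00985). Of 18 genes of cell survival and lumen clearing 3 rose, a share near the 16.9% of all genes, and 5 fell, against 16.3%. Among them were the effector Bak1 (0.77) on the higher and the survival protein Mcl1 (-0.82) and the BH3-only Bcl2l11 (-0.55) on the lower side. Among 18 imprinted genes 2 rose, 2 fell and 14 did not pass, shares below the 16.9% and 16.3% of all genes. Peg3 had 62.2 and 72 CPM in GFP+ ducts, 26.8 and 24.3 in YFP- ducts, 153 and 188 in GFP+ TEBs and 58.3 and 60.8 in YFP- TEBs and rose (log2 1.28 ± 0.09, adjusted p = 1.29e-05), and Plagl1, a zinc finger growth regulator, fell 3.98-fold (log2 -1.99 ± 0.15, adjusted p = 1.24e-05).

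The widest changes outside the lists were chosen by size among genes with a mean of at least 10 CPM in the higher tissue and no overlap of the 4 TEB and 4 duct libraries. That choice fixes their separation, so the values are a description. On the higher side, Tnfrsf19, a TNF receptor family member, had 33.2 and 17.3 CPM in GFP+ TEBs and 23.1 and 38.3 in YFP- TEBs, against 2.83 and 2.69 in GFP+ ducts and 0.494 and 1.35 in YFP- ducts (log2 4.04 ± 0.54). Pcsk6, a proprotein convertase, had 53.8 and 37.7 CPM in GFP+ TEBs and 46.1 and 39.3 in YFP- TEBs, against 4.64 and 2.38 in GFP+ ducts and 4.26 and 4.38 in YFP- ducts (3.50 ± 0.22). Sprr1a, a cornified envelope precursor, had 34.8 and 18.3 CPM in GFP+ TEBs and 10.7 and 9.08 in YFP- TEBs, against 2.92 and 1.65 in GFP+ ducts and 0.549 and 0.462 in YFP- ducts (3.84 ± 0.30), so its GFP+ values exceed that of the library with keratinocyte transcripts. The others were Pamr1 (3.91), Fam167a (3.63), Ifi27l2a (3.53), Adcy1 (3.51), Itih2 (3.26) and Depdc1a (3.23), with the call of Itih2 lost in 5 of 8 omissions of 1 library.

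On the lower side, Masp1, a protease of the complement lectin pathway, had 9.61 and 8.49 CPM in GFP+ ducts, 43.1 and 44.2 in YFP- ducts, 0.0578 and 0.0405 in GFP+ TEBs and 0.302 and 1.32 in YFP- TEBs (log2 -6.20 ± 0.47). Pgm5, a phosphoglucomutase relative of adhesion sites, had 60.7 and 95 CPM in GFP+ ducts, 75.7 and 88.8 in YFP- ducts, 0.27 and 0.405 in GFP+ TEBs and 1.75 and 3.63 in YFP- TEBs (-6.08 ± 0.70). Apod, a lipid carrier, had 1879 and 639 CPM in GFP+ ducts, 449 and 343 in YFP- ducts, 14.4 and 15.5 in GFP+ TEBs and 29.9 and 18.1 in YFP- TEBs (-5.22 ± 0.74), and Cck, the peptide hormone cholecystokinin, had 99.7 and 48 CPM in GFP+ ducts, 75.3 and 60 in YFP- ducts, 1.1 and 1.48 in GFP+ TEBs and 2.65 and 3.49 in YFP- TEBs (-5.12 ± 0.42). These 4 were low in every TEB library. The others were Lrrc36 (-3.99), Gm13889 (-3.99), Hpgd (-3.93) and Cbr2 (-3.92), with the call of Hpgd lost in 5 and that of Cbr2 in 1 of 8 omissions of 1 library.

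The TEB effect was next compared between the gates. The difference, GFP+ minus YFP-, was called for 394 of 16154 genes (2.44%), 195 positive and 199 negative, and for 289 (121 and 168) without YFP- TEB replicate 2. The count was 146 and 158 without YFP- duct replicate 2 and 1, 214 without GFP+ TEB replicate 2, and 597 and 685 without GFP+ duct replicate 1 and 2. Timp3, a metalloprotease inhibitor, had 8.54 and 11.7 CPM in GFP+ ducts, 189 and 234 in YFP- ducts, 63.6 and 65.5 in GFP+ TEBs and 86.2 and 90.2 in YFP- TEBs. It rose by 2.68 in GFP+ and fell by 1.26 in YFP- cells on the log2 scale, so that TEB values of the gates lie closer than duct values (difference 3.94 ± 0.21, adjusted p = 1e-05). Snorc, a proteoglycan gene, had 2.83 and 4.4 CPM in GFP+ ducts, 188 and 155 in YFP- ducts, 16.3 and 17.5 in GFP+ TEBs and 74.7 and 64 in YFP- TEBs (difference 3.55 ± 0.26, adjusted p = 0.000107). Rtn1, a reticulon of the endoplasmic reticulum, had 1.83 and 1.36 CPM in GFP+ ducts, 17.2 and 17.2 in YFP- ducts, 9.25 and 8.79 in GFP+ TEBs and 8.39 and 7.39 in YFP- TEBs (3.61 ± 0.33, adjusted p = 0.000301). On the negative side, Spp1, the milk and matrix protein osteopontin, had 8706 and 5124 CPM in GFP+ ducts, 4.39 and 2.37 in YFP- ducts, 376 and 436 in GFP+ TEBs and 5.95 and 4.78 in YFP- TEBs (-4.74 ± 0.50, adjusted p = 0.00689), and Esm1, a secreted proteoglycan, had 138 and 127 CPM in GFP+ ducts, 0.769 and 0.956 in YFP- ducts, 27.6 and 33.3 in GFP+ TEBs and 2.48 and 3.47 in YFP- TEBs (-3.90 ± 0.28, adjusted p = 9.65e-05). Limch1, an actin-linked protein, was called in the YFP- and not in the GFP+ gate, with 3.66 and 6.11 CPM in GFP+ ducts, 0.714 and 0.429 in YFP- ducts, 3.72 and 5.2 in GFP+ TEBs and 9.79 and 10.3 in YFP- TEBs (-4.24 ± 0.53, adjusted p = 0.00207). The call of Spp1 was lost without GFP+ TEB replicate 2. By list, the largest shares of genes that differed between the gates were 5 of 18 mucosal defence, 6 of 22 interferon, 4 of 15 basal, 5 of 21 immediate early, 4 of 17 SOX and stem-associated, 4 of 18 luminal progenitor, 6 of 27 basement membrane and 5 of 23 Wnt genes. The basal list had median log2 changes of -1.13 in GFP+ and 1.53 in YFP- cells. Its YFP- values include YFP- TEB replicate 2, which had the highest basal sum (896 CPM), and its count without that library is not given here.

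**Figure D4:**
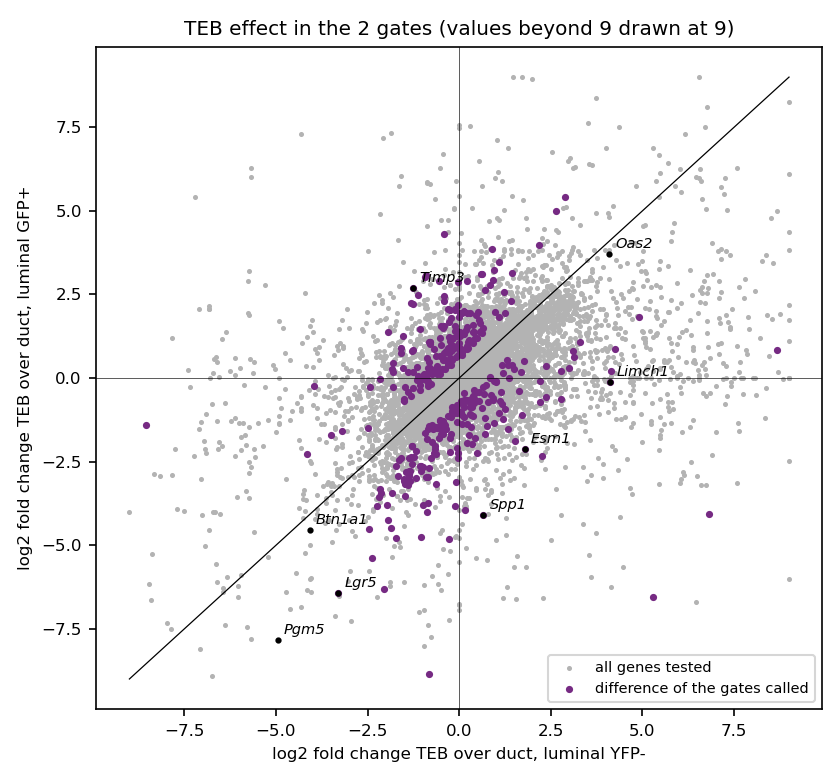
Log2 fold change, TEB over duct, of each gene tested in YFP- (horizontal axis) and GFP+ cells (vertical axis), with the line of equal change and the 394 genes whose difference was called in purple. Oas2, Btn1a1, Lgr5 and Pgm5 have the same direction in both gates, Timp3, Esm1 and Spp1 opposite fitted directions.

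The TEB effect of progenitor-lineage cells was then set against that of hormone-sensing cells, in a fit on 16 luminal libraries. The difference was called for 1652 of 16981 genes (9.73%), 643 higher (3.79%) and 1009 lower (5.94%) in progenitor-lineage cells. A hormone-sensing library, GFP- duct replicate 2, had Krt5 at 2015 CPM of the library total, against a median of 4.18 over the 4 hormone-sensing ducts. The 4 basal ducts had 1899 to 2865 CPM. Whether keratinocytes or basal cells gave the transcripts of GFP- duct replicate 2 was not tested. Without it and YFP- TEB replicate 2, an alternative chosen after the data were seen, 2144 genes were called (949 higher, 1195 lower), and values without both are given beside most results below. Without GFP- duct replicate 2 alone the count was 2349 (953 and 1396), and without YFP- TEB replicate 2 alone 1181 (474 and 707). It was 1010 without GFP+ TEB replicate 1, 1096 without YFP- duct replicate 2, 1024 without YFP+ TEB replicate 2, 1033 without GFP- TEB replicate 2 and 2612 without GFP- duct replicate 1.

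Of 23 Wnt genes tested there 7 were higher and 0 lower in progenitor-lineage cells (7 and 1 of 24 without both libraries). Axin2 changed by 2.71 in progenitor-lineage and -0.09 in hormone-sensing cells (difference 2.80 ± 0.74, adjusted p = 0.0359, and without both libraries 1.78 ± 0.47, adjusted p = 0.026). Without YFP- TEB replicate 2 the pooled progenitor-lineage change of Axin2 was 2.74. The hormone-sensing value of -0.09 thus leans on GFP- duct replicate 2 and does not show an unchanged gene. Tcf7 changed by 2.39 and 0.43 (difference 1.96 ± 0.42, adjusted p = 0.0124, and without both libraries 1.67 ± 0.43, adjusted p = 0.0273). Scnn1b changed by -3.47 and -0.54 (difference -2.93 ± 0.24, adjusted p = 4.11e-05, and without both libraries -2.88 ± 0.26, adjusted p = 9.21e-05), Scnn1g by -3.38 and -1.47 (difference -1.91 ± 0.42, adjusted p = 0.0138, and without both libraries -1.88 ± 0.34, adjusted p = 0.00326). Scnn1a, at -1.45 and -0.47, was called with all libraries and not without both (difference -0.97 ± 0.25, adjusted p = 0.0344, and without both libraries -0.70 ± 0.21, adjusted p = 0.0561). Fgfr1 changed by -2.13 and -0.67 (difference -1.46 ± 0.12, adjusted p = 4.05e-05, and without both libraries -1.44 ± 0.14, adjusted p = 3.85e-05). Peg3 changed in opposite directions, 1.27 and -2.55 (difference 3.82 ± 0.53, adjusted p = 0.00224, and without both libraries 3.10 ± 0.20, adjusted p = 1.49e-06). Of 15 milk protein genes 0 were higher and 1, Mfge8, lower. The median log2 change of that list was -2.62 in the pooled fit and -4.09 in hormone-sensing cells. None of 28 S phase genes was called, and of 26 G2 and M phase genes 1 was higher and 0 lower. These counts were the same without both libraries. Mfge8 changed by -2.11 and -0.56 (difference -1.55 ± 0.23, adjusted p = 0.00136, and without both libraries -1.75 ± 0.20, adjusted p = 0.000124), C3 by -3.11 and -0.12 (difference -3.0 ± 0.36, adjusted p = 0.000909, and without both libraries -3.36 ± 0.35, adjusted p = 0.00084).

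For glycolysis genes the TEB effect was lower in progenitor-lineage than in hormone-sensing cells. Of 16 tested, 9 were called lower and 0 higher (6 and 0 without both libraries, 5 and 0 without YFP- TEB replicate 2 alone). Aldoa, an aldolase, changed by -0.55 and 0.55 (difference -1.10 ± 0.18, adjusted p = 0.00225, and without both libraries -0.87 ± 0.14, adjusted p = 0.00154), and Ldha, lactate dehydrogenase, by -0.68 and 0.25 (difference -0.93 ± 0.26, adjusted p = 0.0452, and without both libraries -0.70 ± 0.24, adjusted p = 0.0879). The malic enzyme Me1 changed by -1.08 and 0.75 (difference -1.83 ± 0.17, adjusted p = 5.41e-05, and without both libraries -1.71 ± 0.17, adjusted p = 4.8e-05). Of 22 interferon genes 1 was higher and 6 were lower (2 and 6 without both, 3 and 9 without GFP- duct replicate 2 alone). Usp18 was the higher one (3.11 against 1.74, difference 1.37 ± 0.30, adjusted p = 0.0146, and without both libraries 1.45 ± 0.34, adjusted p = 0.0206), and Ifih1 had opposite fitted signs (-0.78 against 0.68, difference -1.47 ± 0.11, adjusted p = 3.2e-05, and without both libraries -1.53 ± 0.11, adjusted p = 3.59e-06). Ifi44 changed by 1.12 and 2.92 (difference -1.81 ± 0.30, adjusted p = 0.00288, and without both libraries -2.01 ± 0.30, adjusted p = 0.00142). Of 21 immediate early genes 8 were lower (10 without both, 4 without YFP- TEB replicate 2, 13 without GFP- duct replicate 2), among them Btg2 (-2.28 against -0.75, difference -1.52 ± 0.22, adjusted p = 0.00121, and without both libraries -1.74 ± 0.21, adjusted p = 0.000295).

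The genes at the extremes of this test, chosen by size, included Itgb3, the beta-3 integrin. In progenitor-lineage cells it had 48 to 162 CPM in ducts and 28.6 to 39.9 CPM in TEBs, a pooled call (log2 -1.46 ± 0.37, adjusted p = 0.024) lost with a replicate block, with no filter and in 4 of the 8 fits that left out 1 library, and in hormone-sensing cells it had 4.2 and 18.7 CPM in GFP- ducts, 9.03 and 2.88 in YFP+ ducts, 31.6 and 55.1 in GFP- TEBs and 86.6 and 50.9 in YFP+ TEBs (difference -4.19 ± 0.68, adjusted p = 0.00571, and without both libraries -4.84 ± 0.68, adjusted p = 0.00572). Ramp1, a receptor activity-modifying protein, went the same way, at 40.7 to 54 CPM in ducts and 6.21 to 13.5 CPM in TEBs in progenitor-lineage cells and 9.21 and 7.65 CPM in GFP- ducts, 17.1 and 13.6 in YFP+ ducts, 18.7 and 20.6 in GFP- TEBs and 30.7 and 34.9 in YFP+ TEBs in hormone-sensing cells (difference -3.64 ± 0.18, adjusted p = 1.44e-06, and without both libraries -3.48 ± 0.20, adjusted p = 5.75e-07). Ceacam10, a cell adhesion molecule, did likewise (difference -3.90 ± 0.33, adjusted p = 4.11e-05, and without both libraries -3.80 ± 0.36, adjusted p = 3.23e-05). Of the largest positive differences, Med12l, a Mediator subunit relative, rose in progenitor-lineage cells (1.11 to 3.13 CPM in ducts and 7.9 to 19.7 CPM in TEBs) and was under 1 CPM in all hormone-sensing libraries (difference 5.39 ± 1.0, adjusted p = 0.00594, and without both libraries 5.44 ± 1.05, adjusted p = 0.00767). Adcy1, an adenylyl cyclase, rose, with 0.412 to 1.65 CPM in ducts and 5.67 to 15.6 CPM in TEBs in progenitor-lineage cells, and its hormone-sensing value of 12.5 CPM in GFP- duct replicate 2 compares with 0.352 to 3.57 CPM in the other 3 ducts (difference 5.17 ± 1.14, adjusted p = 0.0196, and without both libraries 2.96 ± 0.59, adjusted p = 0.00591). Trp63, the basal and keratinocyte factor p63, had 206 CPM in GFP- duct replicate 2 and 43.4 CPM in YFP- TEB replicate 2, against 0.0451 to 7.87 CPM in the other 14 libraries (difference 8.21 ± 2.16, adjusted p = 0.0469, and without both libraries 3.29 ± 0.68, adjusted p = 0.00684). Its call was lost in 14 of the 16 fits that left out 1 library, among them that without YFP- TEB replicate 2 (difference 7.39, adjusted p = 0.0971). The call of Adcy1 was lost in 7 of these 16 fits and that of Med12l in 1, without YFP+ duct replicate 1.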

How the data were processed

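Bulk RNA-seq counts per gene were deposited by the authors as raw read counts. Per the submitters' processing notes, featureCounts and the mm10 build were used. The aligner, annotation and settings were not given in the sources used here. Per the labels, libraries were made with a TruSeq RNA kit that does not mark strand, so overlapping antisense genes cannot be told apart. Identifiers were named from RefSeq (25275 of 27179) or GENCODE (18), and 1886 without a symbol held 1.22% of counts.

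From the counts, genes were kept by filterByExpr (minimum count 10, minimum total 15), scaled by TMM and tested with edgeR 4.0.16 in R 4.3.3 (robust quasi-likelihood F-test, Benjamini-Hochberg adjustment over all genes tested, threshold 0.05). The pooled fit had model and tissue as terms (8 libraries, 5 residual degrees of freedom). Each gate, and their difference, was tested in a fit with 1 mean per group (4 residual degrees of freedom), and the difference from hormone-sensing cells on 16 libraries (8 residual degrees of freedom). The standard error is the size of the log2 fold change divided by the square root of F. The fit was tested on simulated counts. Alternatives were DESeq2 1.42.0, limma 3.58.1 (voom), other scaling, no filter, other designs and leaving out single libraries.

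The members and gene lists were chosen with earlier results of these data known, and lists are described by counts and medians with no set test. Genes were named by rule: the 12 largest called changes in each direction with at least 10 CPM in the higher tissue and no overlap of the tissues, up to 4 called members of each list in each direction, the defining genes, the progenitor, milk protein and interferon lists, and the 6 largest differences in each direction of each difference test. Some items that the rule names are not reported here. Promoter sequences are RefSeq's (GRCm38.p6, the mm10 assembly). Promoters of 5 lists were searched for 9 motifs, and only some pairs of list and motif are described. Among the others, AP-1 letters stood in 0 of 20 immediate early promoters, against 7.81% of all promoters. The sterol element core stood in 1 of 19 cholesterol synthesis promoters, against 1.24% of all.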

Additional observations from a re-analysis of the deposited data

Results flagged for a closer look

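Among 22 sets of 4 list sums and 48 sets of 4 gene values, 2 values lay farther from the others of their tissue than Dixon's ratio allows, where chance marks about 1 in 20 sets. The keratinocyte list summed to 549 CPM in YFP- TEB replicate 2 and to 51.5, 71.7 and 96.1 CPM in the other TEB libraries. Pcsk6 stood at 2.38 CPM in GFP+ duct replicate 2 and at 4.64, 4.26 and 4.38 CPM in the other ducts.

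The TEB effect differed between the GFP+ and YFP- gates for 394 genes by edgeR's test of the difference. The largest positive differences (GFP+ minus YFP-, log2) were Dlx5 (3.95, adjusted p = 0.0179), Timp3 (3.94, adjusted p = 1e-05), Kcne3 (3.71, adjusted p = 0.00414), Rtn1 (3.61, adjusted p = 0.000301), Snorc (3.55, adjusted p = 0.000107) and Pgf (3.49, adjusted p = 0.00533). The largest negative ones were Spp1 (-4.74, adjusted p = 0.00689), Dppa1 (-4.53, adjusted p = 0.0305), Hpgd (-4.25, adjusted p = 0.0276), Limch1 (-4.24, adjusted p = 0.00207), Esm1 (-3.90, adjusted p = 9.65e-05) and Lrrc32 (-3.72, adjusted p = 0.00177). The call of Dppa1 was lost in 5 of the 8 fits that left out 1 library.

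The TEB effect differed between progenitor-lineage and hormone-sensing cells for 1652 genes. The largest positive differences were Trp63 (8.21, adjusted p = 0.0469), Med12l (5.39, adjusted p = 0.00594), Ptprz1 (5.28, adjusted p = 0.00472), Adcy1 (5.17, adjusted p = 0.0196), Fam169b (5.10, adjusted p = 0.0233) and Htra1 (5.03, adjusted p = 0.0214). The largest negative ones were Ly6k (-4.52, adjusted p = 0.000638), Dpysl2 (-4.22, adjusted p = 0.00189), Itgb3 (-4.19, adjusted p = 0.00571), Ceacam10 (-3.90, adjusted p = 4.11e-05), Pgm5 (-3.81, adjusted p = 0.0297) and Ramp1 (-3.64, adjusted p = 1.44e-06). A positive difference need not be a rise: in progenitor-lineage cells Ptprz1 fell (pooled log2 -2.65) and Fam169b was not called (-0.68). Hormone-sensing TEBs had 0 to 0.0673 CPM of Ptprz1 and 0 of Fam169b. Dpysl2 rose in progenitor-lineage cells (1.69), and both GFP- ducts were at 0. Htra1 had 39.7 CPM in GFP- duct replicate 2, against 1.21 to 2.17 in the other hormone-sensing ducts. Its TEB change was 0.88 in the GFP+ and 4.25 in the YFP- gate. Ly6k was at 0 counts in both YFP- TEBs and at 1.15 and 1.12 CPM in YFP- ducts. Without YFP- TEB replicate 2 and GFP- duct replicate 2, the difference of Fam169b was no longer called (3.46) and that of Htra1 was 3.1.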

How the results depend on the processing

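The pooled count of 5371 genes stayed within 1.5 times under every alternative run: 5369 with RLE scaling, 5203 with no filter, 5939 with DESeq2, 5707 with limma-voom, 5900 with group means over 24 libraries, 6254 with group means over 8, and 3889 to 4933 with 1 library left out. Of 253 named gene results called, 179 kept their call in every alternative and 197 in every omission of 1 library, and 0 changed sign.

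The difference between gates (394 genes) was 826 with no filter, 901 with DESeq2 and 146 to 685 with 1 library left out. The difference from hormone-sensing cells (1652, of which 643 higher and 1009 lower) was 2491 with DESeq2 (1282 higher, 1209 lower), and 1010 to 2612 with 1 library left out. Omitting both YFP- TEB replicate 2 and GFP- duct replicate 2, chosen after the data were seen, gave the count stated with that comparison above. The GFP+ gate alone gave 2520 to 4501 and the YFP- gate 1841 to 4310 with 1 library left out. The cause of these shifts was not tested. Where a gate is left with 1 library in a tissue, that library is assumed to vary like the others.

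The labels do not say whether replicate numbers pair the samples. Deviations of libraries with the same number correlated at 0.110 in the Elf5 model and 0.078 in the PR-cre model. Across the models they correlated at -0.012 (GFP+ ducts and YFP- TEBs) and -0.019 (YFP- ducts and GFP+ TEBs). With 2 libraries per group these values cannot decide whether the samples are paired. With a replicate block, 4770 genes were called in the pooled comparison (2444 higher, 2326 lower), 837 in the difference between gates and 1953 in the difference from hormone-sensing cells.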
